A study of Homo sapiens with 6 samples.

Results

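The long arm of chromosome 17 (17q) held 376 of the 9585 promoters in the deposited promoter tables. A promoter was counted as 17q where its transcription start site (TSS) lay on chromosome 17 above position 25800000 of the hg19 build, and the 145 other promoters of chromosome 17 formed the comparison. BE(2)-C is a human neuroblastoma cell line with amplified MYCN. Its cells received WDR5 siRNA-1 or a control siRNA for 24 hours, and H3K4me3, trimethylation of lysine 4 of histone H3, was profiled by chromatin immunoprecipitation and sequencing in 1 library per siRNA. For each library the data name the genes with an H3K4me3 peak within 1 kb of the TSS, and each promoter was joined to these lists by gene name. A gene is called control-only here when it was listed with control siRNA and not with WDR5 siRNA, and WDR5-siRNA-only in the opposite case. The lists give no peak height or depth, a single siRNA sequence against WDR5 was used, and the level of WDR5 itself was not analysed here. Because each siRNA has 1 library, nothing can be tested across replicates, and every value describes these 2 libraries. The intervals are exact 95% binomial intervals over genes, which cover counting error only and treat neighbouring genes as independent.

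WDR5 is a shared core subunit of the complexes that methylate H3K4, and H3K4me3 marks the start sites of active or poised genes. N-Myc, the product of MYCN, is a transcription factor that binds with MAX to E-box motifs near many start sites. Gain of 17q is a recurrent chromosomal change in high-risk neuroblastoma, and genes such as BIRC5, PPM1D and TBX2 on this arm have been studied for that reason. The copy number of 17q in these cells was not analysed here.

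Upstream sequences of some N-Myc-binding 17q promoters are shown because this class carries the E-box question and because its members differed in their calls. Each run is the 250 bases before a start site in the RefSeq table of GRCh38.p14, 5′ to 3′ on the gene's strand, and the RefSeq start may differ from the hg19 start in the deposited tables. Capitals mark the E-box form CANNTG, which reads the same on both strands and includes CACGTG, the form preferred by MYC proteins. The 5 below belong to control-only promoters, of which G6PC3, a gene with several RefSeq starts, is shown because the first window in the table holds CACGTG. The other genes shown have 1 start each.
WIPF2, chr17:40219054-40219303, plus strand: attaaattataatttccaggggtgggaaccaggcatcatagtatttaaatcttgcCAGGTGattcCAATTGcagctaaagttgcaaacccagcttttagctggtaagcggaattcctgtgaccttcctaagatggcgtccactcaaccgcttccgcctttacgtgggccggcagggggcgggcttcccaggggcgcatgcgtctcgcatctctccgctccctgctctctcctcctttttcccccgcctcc
G6PC3, chr17:44070423-44070672, plus strand: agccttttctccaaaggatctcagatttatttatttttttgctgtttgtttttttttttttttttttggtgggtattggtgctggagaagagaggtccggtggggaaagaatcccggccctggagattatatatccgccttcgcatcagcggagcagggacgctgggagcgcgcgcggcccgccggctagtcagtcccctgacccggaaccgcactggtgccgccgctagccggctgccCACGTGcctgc
PHOSPHO1, chr17:49230788-49231037, minus strand: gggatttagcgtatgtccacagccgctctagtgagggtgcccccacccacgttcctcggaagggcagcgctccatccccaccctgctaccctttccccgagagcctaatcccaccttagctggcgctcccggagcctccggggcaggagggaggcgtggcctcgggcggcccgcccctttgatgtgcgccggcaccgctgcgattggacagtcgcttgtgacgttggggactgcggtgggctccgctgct
RGS9, chr17:65137120-65137369, plus strand: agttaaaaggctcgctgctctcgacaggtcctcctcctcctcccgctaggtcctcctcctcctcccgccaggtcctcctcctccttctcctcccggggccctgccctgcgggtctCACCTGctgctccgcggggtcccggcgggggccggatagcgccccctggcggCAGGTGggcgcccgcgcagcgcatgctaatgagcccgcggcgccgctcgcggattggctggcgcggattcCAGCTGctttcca
WIPI1, chr17:68457497-68457746, minus strand: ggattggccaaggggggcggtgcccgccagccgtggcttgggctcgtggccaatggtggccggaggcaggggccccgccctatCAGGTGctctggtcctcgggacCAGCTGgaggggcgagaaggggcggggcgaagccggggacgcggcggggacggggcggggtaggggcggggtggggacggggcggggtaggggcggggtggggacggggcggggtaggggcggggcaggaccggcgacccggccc
The 4 below belong to 17q genes studied in neuroblastoma that were listed in both libraries.
TOP2A, chr17:40417897-40418146, minus strand: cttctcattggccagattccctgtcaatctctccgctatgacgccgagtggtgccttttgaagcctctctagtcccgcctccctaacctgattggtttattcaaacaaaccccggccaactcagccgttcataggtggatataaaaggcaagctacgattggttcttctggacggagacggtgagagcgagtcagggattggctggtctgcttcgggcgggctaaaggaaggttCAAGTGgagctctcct
PHB, chr17:49414883-49415132, minus strand: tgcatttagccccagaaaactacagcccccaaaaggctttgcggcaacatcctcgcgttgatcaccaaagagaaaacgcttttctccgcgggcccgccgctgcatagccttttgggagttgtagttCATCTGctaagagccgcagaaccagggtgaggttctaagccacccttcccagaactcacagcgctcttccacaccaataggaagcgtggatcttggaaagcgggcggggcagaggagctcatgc
TRIM37, chr17:59106881-59107130, minus strand: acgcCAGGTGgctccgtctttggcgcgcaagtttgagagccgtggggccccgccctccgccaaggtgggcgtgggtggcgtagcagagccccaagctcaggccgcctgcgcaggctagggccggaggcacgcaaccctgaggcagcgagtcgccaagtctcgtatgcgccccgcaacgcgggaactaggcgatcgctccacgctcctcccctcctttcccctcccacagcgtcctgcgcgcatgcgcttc
RPS6KB1, chr17:59892871-59893120, plus strand: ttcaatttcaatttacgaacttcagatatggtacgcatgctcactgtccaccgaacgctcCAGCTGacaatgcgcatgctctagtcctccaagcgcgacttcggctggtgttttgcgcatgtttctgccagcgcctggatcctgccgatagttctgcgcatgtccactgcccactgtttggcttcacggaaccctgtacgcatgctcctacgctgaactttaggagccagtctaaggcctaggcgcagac
RefSeq windows were found for 7 of the N-Myc-binding control-only promoters and for 5 N-Myc-binding candidates of 17q gain listed in both. Counting the first window of each, CANNTG occurred in 5 of the 7 control-only promoters and in 5 of the 5 listed in both. Among all 35116 windows of the same length in the RefSeq table, 61.8% held CANNTG and 6.34% held CACGTG. In G6PC3 the first base of CACGTG lay at position -11 relative to the start, and because the window was picked for it no count of this form is drawn from the windows shown. PHOSPHO1 held no CANNTG in this window, although its promoter was tabled as N-Myc-binding. RefSeq windows were at hand for 254 of the 376 members (67.6%), under the 80% set for a comparison of base composition or motif share over the arm, so that comparison is void.

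N-Myc-binding promoters were common on 17q. The N-Myc-binding table held 168 of the 376 promoters on 17q (44.7%, interval 39.6 to 49.9%), 66 of 145 on the rest of chromosome 17 (45.5%, interval 37.2 to 54.0%) and 3020 of 9064 on the rest of the genome (33.3%, interval 32.3 to 34.3%). Over all tabled promoters the share was 33.9%. Relative to the rest of chromosome 17 the difference was -0.84 percentage points (interval -10.3 to 8.53), and relative to the rest of the genome it was 11.4 points (interval 6.32 to 16.5). Among 24 units, the chromosomes with chromosome 17 split into 17q and its rest, 17q ranked 5 from the highest, and the others ran from 10.4% on the X chromosome to 48.6% on chromosome 19. No source used here says how the authors called a promoter N-Myc-binding.

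The WDR5 siRNA list named fewer 17q promoters than the control list. It named 238 of the 376 (63.3%, interval 58.2 to 68.2%) and the control list named 276 (73.4%, interval 68.6 to 77.8%), against 62.8% of all tabled promoters with WDR5 siRNA and 70.5% with control siRNA. The lists shared 237 of these promoters, 39 were control-only, 99 were in neither, and ABCA8, which encodes an ABC-family lipid transporter, was WDR5-siRNA-only. The 39 control-only promoters made up 14.1% of the 276 listed with control siRNA (interval 10.2 to 18.8%), against a background of 11.6% over all tabled promoters. On the rest of chromosome 17 the share was 9 of 100 (9%, interval 4.20 to 16.4%). The difference of 5.13 percentage points had an interval of -2.95 to 11.4, so no difference was detectable at these numbers. The N-Myc classes are mixed in this difference. On the rest of chromosome 17, 65% of control-listed promoters were N-Myc-binding, and weighted to that makeup the 17q share was 12.5%. WDR5-siRNA-only promoters were 1 of the 100 members without a control peak (1%), against 1.35% over all tabled promoters.

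The 17q promoters differed by N-Myc class. Among N-Myc-binding promoters of 17q, 151 of 168 were listed with WDR5 siRNA (89.9%, interval 84.3 to 94.0%) and 159 with control siRNA (94.6%, interval 90.1 to 97.5%). Among non-binding promoters of 17q, 87 of 208 were listed with WDR5 siRNA (41.8%, interval 35 to 48.8%) and 117 with control siRNA (56.3%, interval 49.2 to 63.1%). Control-only promoters were 8 of 159 in the binding class (5.03%, interval 2.20 to 9.67%, background 4.18%) and 31 of 117 in the non-binding class (26.5%, interval 18.8 to 35.5%, background 17.9%). The binding share of 17q was 21.5 points below the non-binding one (difference -21.5, interval -30.5 to -13.0), and the same order held over the whole genome. The background of 4.18% lay within the interval of the 17q binding share, and the background of 17.9% lay below the interval of the 17q non-binding share.

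**Figure D1:**
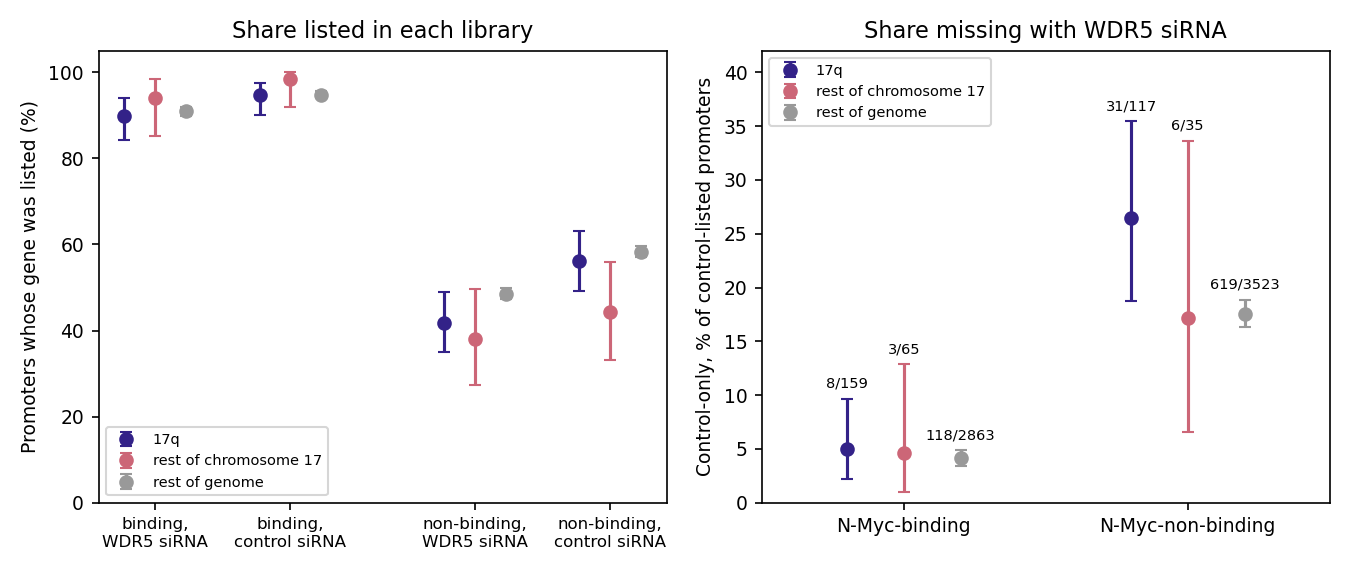
Left, the percentage of promoters whose gene was listed with WDR5 siRNA or control siRNA, by N-Myc class, for 17q, the rest of chromosome 17 and the rest of the genome. Right, control-only promoters as a percentage of control-listed ones, with the counts printed. Bars are exact 95% intervals over genes from 1 library per siRNA. The non-binding promoters of 17q stand at 26.5%, and their interval overlaps that of the rest of chromosome 17.

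For non-binding promoters the control-only share on 17q was 8.93 points above that of the rest of the genome (26.5% against 17.6%, interval of the difference 1.65 to 17.7). It was 9.35 points above that of the rest of chromosome 17, where 6 of 35 were control-only (17.1%), with an interval of -7.76 to 21.9. Among the 24 units 17q ranked 1 from the highest for this class, and the others ran from 13.3% to 22.2%, with a median of 17%. It ranked 4 for the control-only share of both classes together and 7 for that of the binding class. The units differ in size and the ranking was made after the values were seen. Without the promoters between 40 and 50 Mb the difference from the rest of the genome was 2.43 points (interval -5.17 to 12.9). That stretch was picked because it held many control-only promoters, so leaving it out had to lower the difference.

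**Figure D2:**
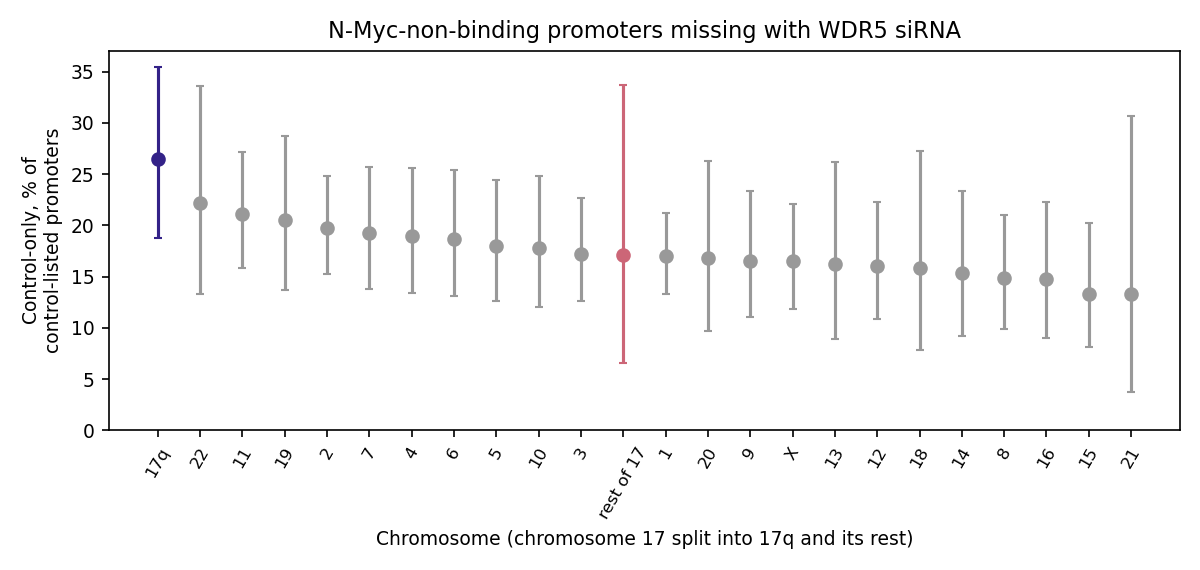
Control-only N-Myc-non-binding promoters as a percentage of control-listed ones for each chromosome with at least 20 such promoters, with chromosome 17 split into 17q and its rest. Bars are exact 95% intervals over genes. The 17q value of 26.5% is the highest of the 24 and its interval, 18.8 to 35.5%, overlaps those of the other units.

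Control-only promoters were unevenly spread along the arm. Of the 39, 19 lay between 40 and 50 Mb, where 76 promoters were listed with control siRNA (25%, interval 15.8 to 36.3%), and 20 lay among the 200 control-listed promoters elsewhere on 17q (10.0%, interval 6.22 to 15.0%). In the non-binding class the numbers were 16 of 42 (38.1%, interval 23.6 to 54.4%) inside this stretch and 15 of 75 (20%, interval 11.6 to 30.8%) outside it. In the binding class they were 3 of 34 (8.82%) inside and 5 of 125 (4.00%) outside. The stretch was chosen after these counts were seen. Between 35 and 40 Mb, where the type I keratin genes lie, 24 of 33 non-binding promoters were in neither list. Of these 24, 17 were keratin or keratin-associated genes. In neither list were 43.3% of all non-binding 17q promoters and 41.4% of those over the whole table. All 19 N-Myc-binding promoters between 55 and 60 Mb were listed in both libraries, among them TRIM37, RPS6KB1 and TBX2. Over the arm 151 of 168 binding promoters were in both, and so were all 10 between 30 and 35 Mb and all 5 between 50 and 55 Mb.

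**Figure D3:**
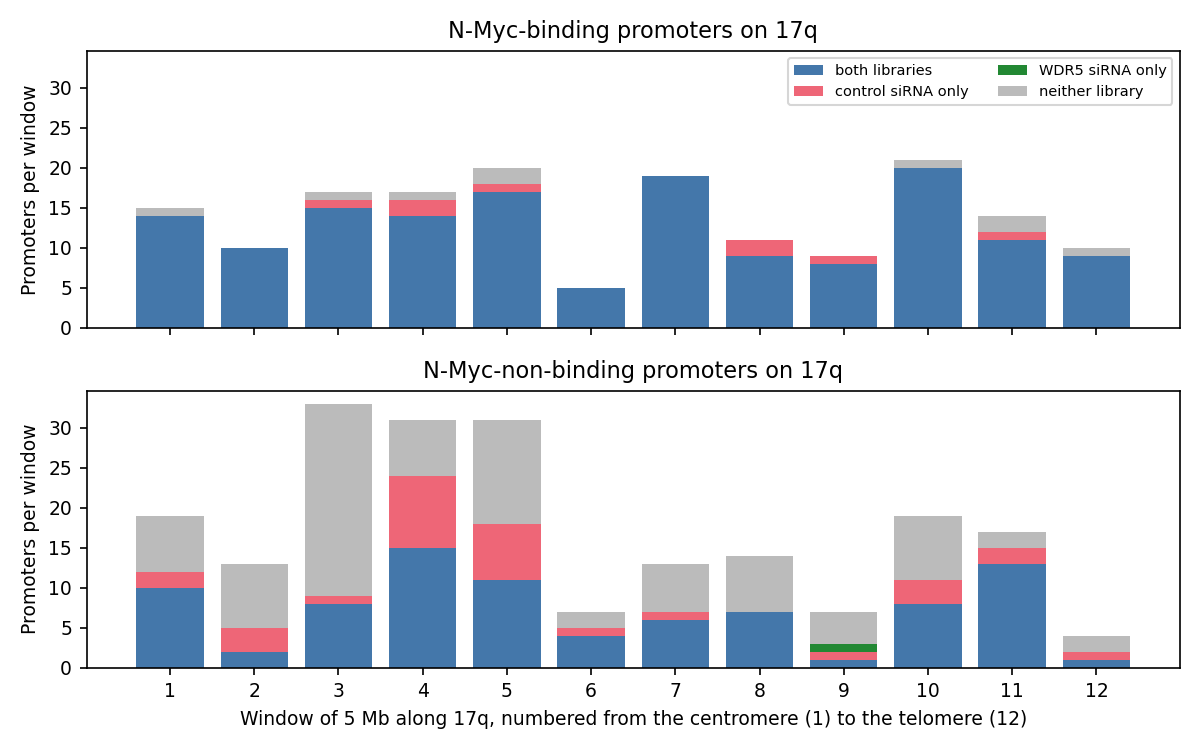
Number of 17q promoters per 5 Mb window, numbered from the centromere to the telomere, for binding (top) and non-binding (bottom) promoters, coloured by the library in which the gene was listed. Windows 4 and 5 hold 9 and 7 control-only non-binding promoters, and window 3 holds 24 non-binding promoters in neither list.

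The 8 N-Myc-binding control-only promoters had varied roles. They were WIPF2 (TSS at position 38375574), an actin regulator of the WASP-interacting family, TTC25 (40086888), a cilium component, G6PC3 (42148098), a glucose-6-phosphatase, and PHOSPHO1 (47308128), a phosphatase of bone mineralisation. The others were CYB561 (61523545), the cytochrome b561 of secretory granules, RGS9 (63133456), a regulator of G protein signalling, WIPI1 (66453653), which acts in autophagosome formation, and SOCS3 (76356158), an inhibitor of cytokine signalling. All of these were listed with control siRNA and absent from the WDR5 siRNA list. Another 9 N-Myc-binding promoters, KSR1, ZPBP2, NSF, MYL4, CHAD, FADS6, TNRC6C, MAFG and ZNF750, were in neither list. They were 5.36% of the 168 on 17q, near the 5.01% of all tabled N-Myc-binding promoters.

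All 11 tabled promoters of genes studied in connection with 17q gain had a peak in both libraries, while TK1, an untabled gene of the same list, was control-only. They were BIRC5 (76210277), which encodes the apoptosis inhibitor survivin, PPM1D, a phosphatase that restrains p53, TBX2, a T-box transcription factor, TOP2A, a topoisomerase, BRIP1, a helicase of DNA repair, MSI2, an RNA-binding protein, and PHB, TRIM37, RPS6KB1, SOX9 and GRB2. Of these, 7 were N-Myc-binding. Over all tabled promoters, 4.18% of control-listed N-Myc-binding promoters and 17.9% of non-binding ones were control-only, so 11 genes are too few to set this list apart. A call in both libraries does not show that the H3K4me3 level was the same.

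Tabled promoters of chromatin regulation, RNA processing and protein synthesis genes on 17q were likewise called in both libraries wherever they were called with control siRNA. All 13 tabled chromatin and transcription genes were, among them SUZ12, a core subunit of Polycomb repressive complex 2, the chromobox genes CBX1, CBX2 and CBX8, SMARCE1 of the SWI/SNF complex and BPTF of the NURF remodeller. So were 13 of 14 RNA processing genes, such as the helicases DDX5 and DDX42 and the exon junction protein EIF4A3, and the exception, TNRC6C of microRNA silencing, was in neither list. All 11 members of the protein synthesis list were in both, and all 11 were N-Myc-binding. They included RPL19, RPL23, RPL27 and RPL38 of the ribosome and MRPS7, MRPS23, MRPL27 and MRPL45 of the mitochondrial ribosome. They also included NARF, which is not a protein synthesis gene. EIF4A3 is counted in the RNA processing list too, and RPS6KB1 in the signalling list. The proteasome and ubiquitin list had 13 of 15 in both, with PSMB3, PSMC5, PSMD3, PSMD12 and PSME3 among them, 1 control-only (RNF135, a ubiquitin ligase of antiviral sensing) and 1 in neither (RNF43). These counts stand beside a background in which 11.6% of control-listed promoters were control-only and 4.18% of N-Myc-binding ones were.

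Cell cycle and DNA repair genes had 12 of 15 in both, 2 control-only and 1 in neither. CDC6, CDC27, RAD51C, LIG3, SPAG5 and KPNA2 were among those in both. The control-only members were BRCA1 (41277500), which acts in homologous recombination, and RDM1 (34257780). KIF2B was in neither. The 2 were 14.3% of the 14 listed with control siRNA, close to the 14.1% of all 17q promoters and the 11.6% of all tabled ones. BRCA1 and RDM1 were non-binding promoters.

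Neuronal genes had 5 control-only members among the 16 listed with control siRNA (31.3%), and all 5 were among the 12 non-binding ones (41.7%). Non-binding promoters were control-only in 26.5% of cases on 17q and in 17.9% over all tabled promoters. The 5 were SLC6A4 (28562986), the serotonin transporter, PPP1R1B (37783177), the phosphatase inhibitor DARPP-32, CACNA1G (48638429), a T-type calcium channel, KCNJ2 (68165676), an inward rectifier potassium channel, and NPTX1 (78450404), neuronal pentraxin 1. Listed in both were 11, including MAPT, which encodes tau, CDK5R1, the activator of the kinase CDK5, the somatostatin receptor SSTR2, the neurotrophin receptor NGFR and PNMT, which converts noradrenaline to adrenaline. The other 7, NEUROD2, NSF, KCNJ16, CACNG1, CACNG5, CHAD and ENPP7, were in neither. CHAD, ENPP7 and CACNG1 are not specific to neurons, and none of them enters the shares above. Genes that do enter them are also on other lists. SOX9 and NGFR are listed for glia, PNMT for metabolism, and SLC16A6 and SLC6A4 as solute carriers. The shares therefore depend on how the list was drawn.

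Signalling genes had 20 of 26 in both, 3 control-only and 3 in neither. The 3 were 13% of the 23 listed with control siRNA, near the 14.1% of all 17q promoters. Related genes on the arm differed in their calls. STAT3 and STAT5B, transcription factors of cytokine signalling, were in both, whereas STAT5A (40439565) was control-only. The ligand gene WNT3 was in both and WNT9B (44928968) control-only. SOCS7 was in both and SOCS3 control-only. ERBB2, KSR1 and CCR7 were in neither. Of the ABCA transporter genes tabled on the arm, ABCA5 was in both, ABCA8 (66951533) was WDR5-siRNA-only, and ABCA6 and ABCA9 were in neither. The scaffold gene MPP3 was in both and MPP2 (41985113) control-only.

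Metabolic genes had 13 of 17 in both, such as FASN, the fatty acid synthase, PYCR1 of proline synthesis and COASY of coenzyme A synthesis. The control-only ones were NAGS (42082032), which makes the activator of the urea cycle, G6PC3 and CYB561, and G6PC was in neither. Matrix and adhesion genes had 6 of 11 in both, with COL1A1 (48279000) control-only. Solute carriers had 6 of 8 in both, with SLC6A4 control-only. Of the control-listed promoters, 18.8% of 16 metabolic genes, 14.3% of 7 matrix and adhesion genes and 14.3% of 7 solute carriers were control-only, against 14.1% on 17q and 11.6% over all tabled promoters. The list of lineage transcription factors outside HOXB had 5 of 10 in both (TBX2, SOX9, ETV4, NR1D1 and DLX4) and 5 in neither. Not all of its members are developmental factors. Those in neither were non-binding, a class with 43.3% in neither on 17q and 41.4% over the whole table. In the HOXB cluster HOXB9 (46703835) and HOXB13 (46806111) were control-only and the other 8 were in neither. The remaining control-only promoters were TMEM98, TMEM132E, PTRF, TMEM106A, PYY, ASB16, TTLL6, SPATA20, ABCC3, NOG, BZRAP1, SDK2, USH1G, ST6GALNAC2, C1QTNF1 and SECTM1, all non-binding, of which NOG encodes the BMP antagonist noggin.

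Tabled markers of other cell types on the arm, all non-binding promoters, were mostly in neither list, as were 43.3% of all non-binding 17q promoters and 41.4% of those over the whole table. All 17 keratin and keratin-associated genes, which build the filaments of epithelia and hair, were in neither list, as were 19 of 20 immune and chemokine genes, with LIMD2 the exception in both. Of 4 genes listed for glia, OMG and EVI2B were in neither and NGFR and SOX9, which neural crest derivatives also express, were in both. EVI2B is a gene of blood cells rather than a glial marker. Untabled names can enter here only through a peak, and of these the immune genes TBX21 and CCR10 and the glial gene CNP were in both lists.

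**Figure D4:**
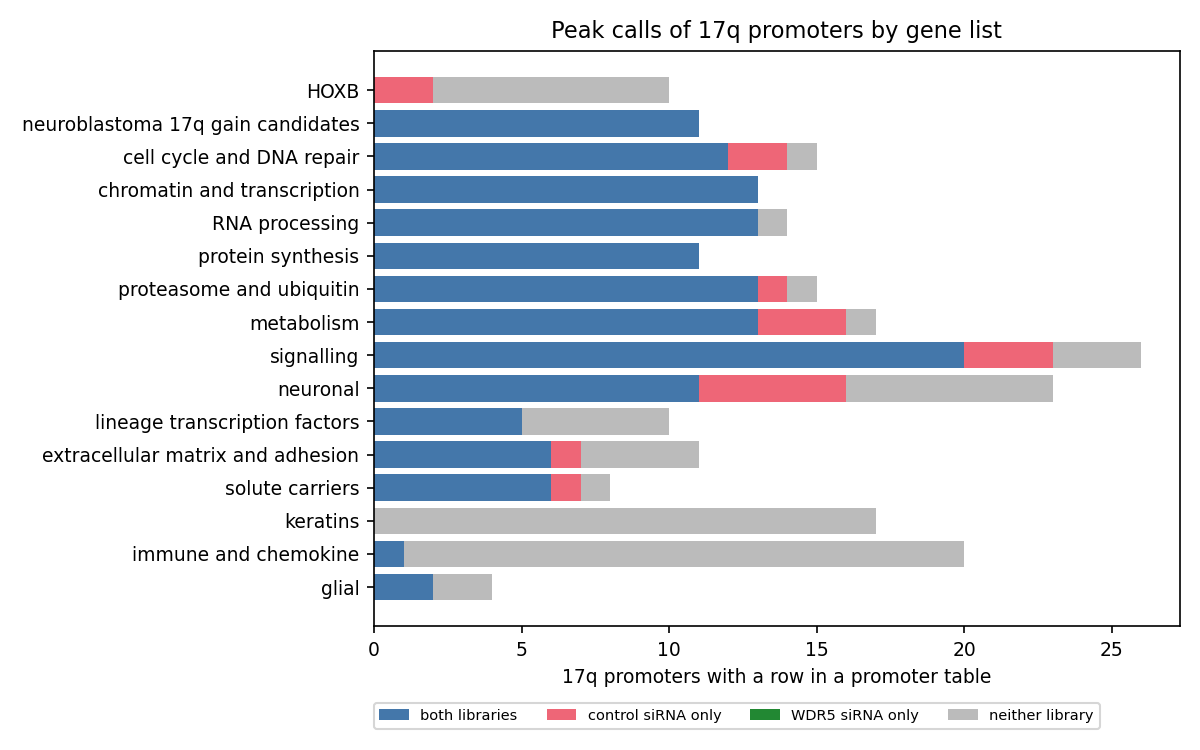
Number of tabled 17q promoters per gene list, coloured by the library in which the gene was listed. The lists share some genes. The 17 keratin and keratin-associated genes are in neither list. The 11 candidates of 17q gain and the 11 members of the protein synthesis list are all in both. The neuronal list holds 5 control-only members. Over all tabled promoters, 11.6% of control-listed ones were control-only.

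Promoters close together had the same calls. Neighbouring tabled start sites lay a median of 70784 bp apart, and 14 pairs lay within 2 kb. In all 14 pairs both genes had the same call and the same N-Myc class. The 1 kb windows of such pairs overlap, so 1 peak can give both names a call. Of these, 13 pairs were listed in both libraries and 10 were N-Myc-binding. Examples were MRPL27 and EME1, 19 bp apart, IFT20 and TNFAIP1, 33 bp apart, and TUBD1 and RPS6KB1, 101 bp apart. The control-only pair was PYY, a gut hormone gene, and NAGS, whose starts at 42081837 and 42082032 were 195 bp apart. Over all 375 neighbouring pairs, 224 had the same call.

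The peak lists also named 17q genes without a tabled promoter. Both lists run in genome order, and between NLK and B3GNTL1, the first and last members listed, the WDR5 siRNA list held 486 distinct names and the control list 577. In that stretch 482 names were shared, 95 of the 577 control names were control-only (16.5%, interval 13.5 to 19.7%, against 13.5% over all control names), and 4 of the 486 WDR5 siRNA names were WDR5-siRNA-only (0.817% over all WDR5 siRNA names). The matching stretch of the rest of chromosome 17 had 32 control-only of 228 names (14.0%, interval 9.80 to 19.2%). The 300 untabled control names of the 17q stretch held 55 control-only ones (18.3%, interval 14.1 to 23.2%), those of the rest of chromosome 17 held 23 of 128 (18.0%), and those of the whole list 15.5%. Non-coding, LOC, numeric or accession-style names made up 39 of the 300, of which 13 were control-only (33.3%), against 4 of 17 on the rest of chromosome 17 (23.5%) and 20.8% over the whole list. The 4 WDR5-siRNA-only names were ABCA8, TMEM100, ARSG and LINC00469.

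Untabled names added to several gene lists, and 18.3% of all untabled control names of the stretch were control-only. Of 18 untabled chromatin and transcription genes 17 were in both, including KAT2A, EZH1, MED1 and H3F3B, and MED24 of the Mediator complex was control-only. JMJD6, ALYREF and IGF2BP1, further candidates of 17q gain, were in both and TK1, thymidine kinase, was control-only. Of 17 untabled neuronal genes 4 were control-only, namely GRIN2C, KCNH6, NXPH3 and RAB37. Of 9 untabled members of the list of lineage transcription factors 4 were control-only, namely LHX1, FOXJ1, HLF and RARA, the retinoic acid receptor alpha. CRHR1, tabled on an alternative haplotype contig of chromosome 17 and so not a member, was control-only.

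In the 17q stretch of the control list 38 of the 95 control-only names stood next to another (40%), against 16 of 32 on the rest of chromosome 17 (50%) and 37.7% over the whole list. The 17q stretch held 15 runs in which 2 or more control-only names followed each other, and 6 of the runs had 3 or more. The longest had 5 names, MYCBPAP, SPATA20, CACNA1G, CACNA1G-AS1 and ABCC3. Others paired a gene with a neighbouring or antisense transcript, as BRCA1 with NBR2, KCNJ2 with KCNJ2-AS1, and RAMP2 with RAMP2-AS1. Where such transcripts start close together 1 peak can give several names.

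The calls of 17q promoters varied with their row in the deposited tables, whose order no header explains. Among N-Myc-binding promoters of 17q the median row stood at 87.7% of the table length for control-only ones (range 82.2 to 93%), at 35% for those in both and at 96.1% for those in neither. In the non-binding table the medians were 47.5% for control-only (range 24.2 to 56.7%), 18.5% for both and 82.1% for neither, and ABCA8 stood at 99.1%. Over the rest of the genome the medians ran in the same order, at 90.5, 46.1 and 97.0% for control-only, both and neither in the binding table and at 51.6, 24.0 and 78.3% in the non-binding table. The control-only rows there ranged more widely, from 26.1 to 98.0% in the binding table and from 26.4 to 99.8% in the non-binding table. Of the 132 binding 17q promoters before row 2675, the first control-only one, 131 were in both and NSF was in neither. Between that row and row 3025, the last control-only one, 18 were in both and 8 control-only, and of the 10 after it 2 were in both and 8 in neither. All 50 non-binding 17q promoters before row 1529, the first control-only one (MPP2), were in both libraries. After row 3592, the last control-only one (PPP1R1B), none of 88 was listed with control siRNA, and ABCA8 alone was listed with WDR5 siRNA. Between those rows 36 were in both, 31 control-only and 3 in neither. The first 17q rows were MFSD11 (row 8), TBX2 (18) and ARHGDIA (31) in the binding table and PPP1R9B (8), KLHL11 (37) and C17orf70 (54) in the non-binding table. The last were ZPBP2, TNRC6C and KSR1 in the binding table and KRT40, TANC2 and ABCA8 in the non-binding table. The rows are a description and what they rank is not stated in any source used here.

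**Figure D5:**
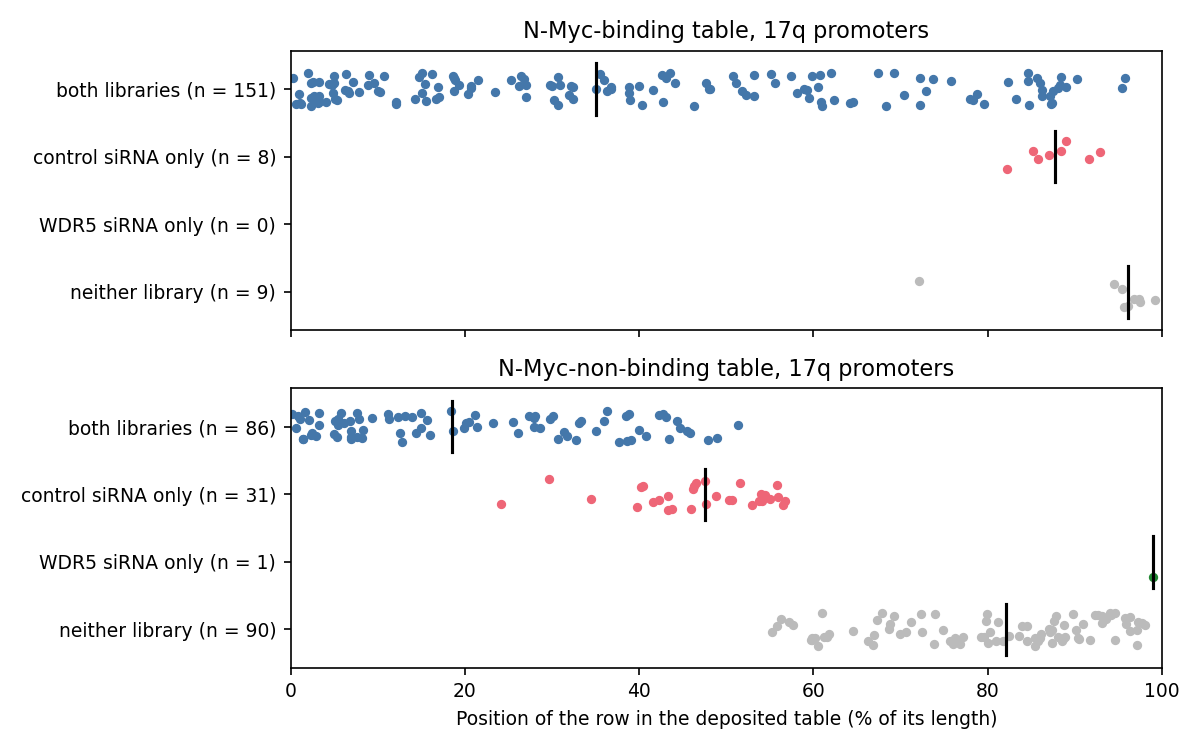
Position of each 17q promoter in its deposited table, in percent of the table length, by the library in which its gene was listed. Each point is a promoter, vertical jitter separates points, and black lines are medians. In the non-binding table control-only promoters lie between 24.2 and 56.7%, after most of those in both and before nearly all of those in neither. Control-only non-binding promoters of the rest of the genome run from 26.4 to 99.8%.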

How the data were processed

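Per the submitters' processing notes, BWA 0.7.12 and bedtools were used and the build was hg19, with no role stated. No source used here names the peak caller, its threshold or its control library. The deposited files hold gene names with a peak within 1 kb either side of the TSS for each H3K4me3 library, and a TSS interval with a gene name for N-Myc-binding and non-binding promoters. They hold no measured unit, so depth is unknown. IgG and input libraries were not used here.

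Promoter positions are the second coordinate of the tabled interval. Names were made distinct and joined exactly as written. A join through RefSeq synonyms (375 of 376 members matched) was an alternative. A peak at another start of a gene can count for its tabled promoter. Shares carry exact (Clopper-Pearson) intervals and differences Newcombe intervals, checked on simulated data. No p-value is given, since each group has 1 library.

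The members and gene lists were chosen with earlier results of these data known. Named genes are the 17q promoters listed in 1 library, list members, the first and last 3 rows per table and close pairs. Sequences came from RefSeq windows on GRCh38.p14, for N-Myc-binding promoters that were control-only or candidates of 17q gain, shown where a gene had 1 window or held CACGTG. Tables were handled with pandas 2.3.3 and numpy 2.4.6 in Python 3.11.15, intervals came from scipy 1.17.1 and plots from matplotlib 3.10.9.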

Additional observations from a re-analysis of the deposited data

How the results depend on the processing

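No paired analysis was possible because each siRNA has 1 H3K4me3 library, so no replicate could be left out either. The control-only share of 17q, 14.1%, was 5.03% in N-Myc-binding promoters alone, 26.5% in non-binding ones alone and 10.0% without the promoters between 40 and 50 Mb, a setting chosen after seeing the data for its many control-only promoters, so that its removal had to lower the share. It stayed within its interval in the other 9 alternatives. Of these, the join through RefSeq synonyms and the removal of non-coding names left the counts unchanged at 39 of 276. They therefore say nothing about its stability. The difference from the rest of chromosome 17 (5.13 points) ran from 0.42 to 9.35 points over 13 alternatives. It was lowest in N-Myc-binding promoters alone and was 1 without the 40 to 50 Mb promoters. One alternative took the rest of the genome as the reference instead (2.59 points). All values lay within the main interval, -2.95 to 11.4, which is wide and includes 0, so this shows little about stability. The N-Myc-binding share of 17q was 57.6% with control-listed promoters as the denominator, because unlisted promoters, mostly non-binding, then leave it, and 42.5 to 49.3% in the other 9 alternatives. The non-binding difference from the rest of the genome ran from 2.43 (without the 40 to 50 Mb promoters) to 9.57 points over 10 alternatives. With 17q taken from 45 Mb its interval also included 0 (6.31 points, -2.40 to 17.8). A promoter without a call may still carry H3K4me3, since read depth is unknown.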

Other observations

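A control-only entry in the 17q stretch of the control list, next to CYB561, is the number 40238 where a gene name should stand. Another entry of the stretch, listed in both libraries, is the number 40057. Neither number was traced to a gene here. Both are counted among the 39 non-coding, LOC, numeric or accession-style names, so that group is not known to hold non-coding transcripts only.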
